A study of Homo sapiens with 6 samples.

Results

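The 10 genes described here are DUSP4, DUSP5, DUSP6, SPRY2, SPRY4, SPRED1, SPRED2, ETV4, ETV5 and IER3, which the MAP kinase ERK is known to switch on and most of which restrain or extend its signal. They were chosen by name, as the rows of the deposited expression table whose Entrez gene ID maps to these symbols. Each of the 10 had 1 probe set, of 24726 probe sets and 23931 named genes in the table. Expression was measured on Affymetrix arrays in 6 xenograft tumours of Huh7, an established human hepatocellular carcinoma line, injected subcutaneously into nude mice, which lack T cells. In the IR-A group (3 tumours, 1 array each) the cells carried the plasmid pRcCMVi.hIR-A(GFP) for isoform A of the insulin receptor, and in the control group (3 tumours, 1 array each) the empty vector. Cells of both groups were stable transfectants selected with G418 and by cytometry for GFP expression. The name of the plasmid points to a CMV promoter. No label names the mouse, clone or culture behind a tumour, and the p-values therefore reflect the spread among these arrays, part of which may be technical.

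The insulin receptor passes its signal to ERK through the adaptors SHC1 and GRB2, the exchange factor SOS, RAS, RAF and MEK. Active ERK then induces its own brakes. DUSP phosphatases remove the phosphates that activate ERK, and Sprouty and SPRED proteins act further up, between the receptors and RAF. ETV4 and ETV5, ETS transcription factors of the PEA3 group, carry the signal to further genes, and IER3 is an immediate early gene tied to survival and ERK activity. Transcripts of these genes are widely used as a readout of ERK output. The comparison asks how their levels differed in tumours that overexpress the receptor.

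The overexpressed gene was measured first. INSR lay at log2 signals of 8.04, 7.61 and 8.47 in the control tumours and 10.65, 11.31 and 11.01 in the IR-A tumours, and the groups did not overlap. The difference of 2.95 (SE 0.26) had an adjusted p of 0.0769 in limma, and the probe set separates neither isoforms nor vector from endogenous transcript. At an adjusted p under 0.05, limma, the tool used for every test of single genes here, called 0 of 24726 probe sets. At an unadjusted p under 0.05, 1738 were lower in IR-A tumours and 1755 higher. Control tumour 2 stood apart from its group, with a mean correlation across probe sets of 0.982 with the other controls and 0.987 with the IR-A tumours. Its limma array weight was 0.476, against 0.955 to 1.59 for the other arrays. Counts are therefore also given without it. Hepatocyte and hepatoma markers were bright in every tumour, among them ALB, with control values of 12.82 to 13.04 and IR-A values of 12.99 to 13.09. The number of arrays limits the precision, and an exact permutation test of 3 against 3 tumours cannot go below p = 0.1.

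IER3, ETV4 and SPRED2 had the lowest signals in IR-A relative to control tumours, at 32.9%, 53.9% and 63.3% of the control level (geometric means, n = 3 per group). DUSP6, SPRY4, SPRED1 and ETV5 lay at 66.7% to 81.1%, and DUSP4, DUSP5 and SPRY2 at 96.6% to 102%. None of the 10 passed limma's adjusted threshold of 0.05 (lowest adjusted p = 0.147), against 0% of all probe sets lower at that threshold. At an unadjusted p under 0.05, 5 of the 10 were lower and 0 higher, against 7.03% of all probe sets lower and 7.10% higher. With the dimmest 50% of probe sets dropped, which kept all 10 genes, 5 were again lower, against 9.68% of the probe sets kept. The groups did not overlap in 4 of the 10, all lower in IR-A tumours, against 9.45% of all probe sets. The sign was negative in 9 of 10, against 56.0% of all probe sets. The median log2 difference was -0.42 over the 10 genes and -0.026 over all probe sets.

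**Figure D1:**
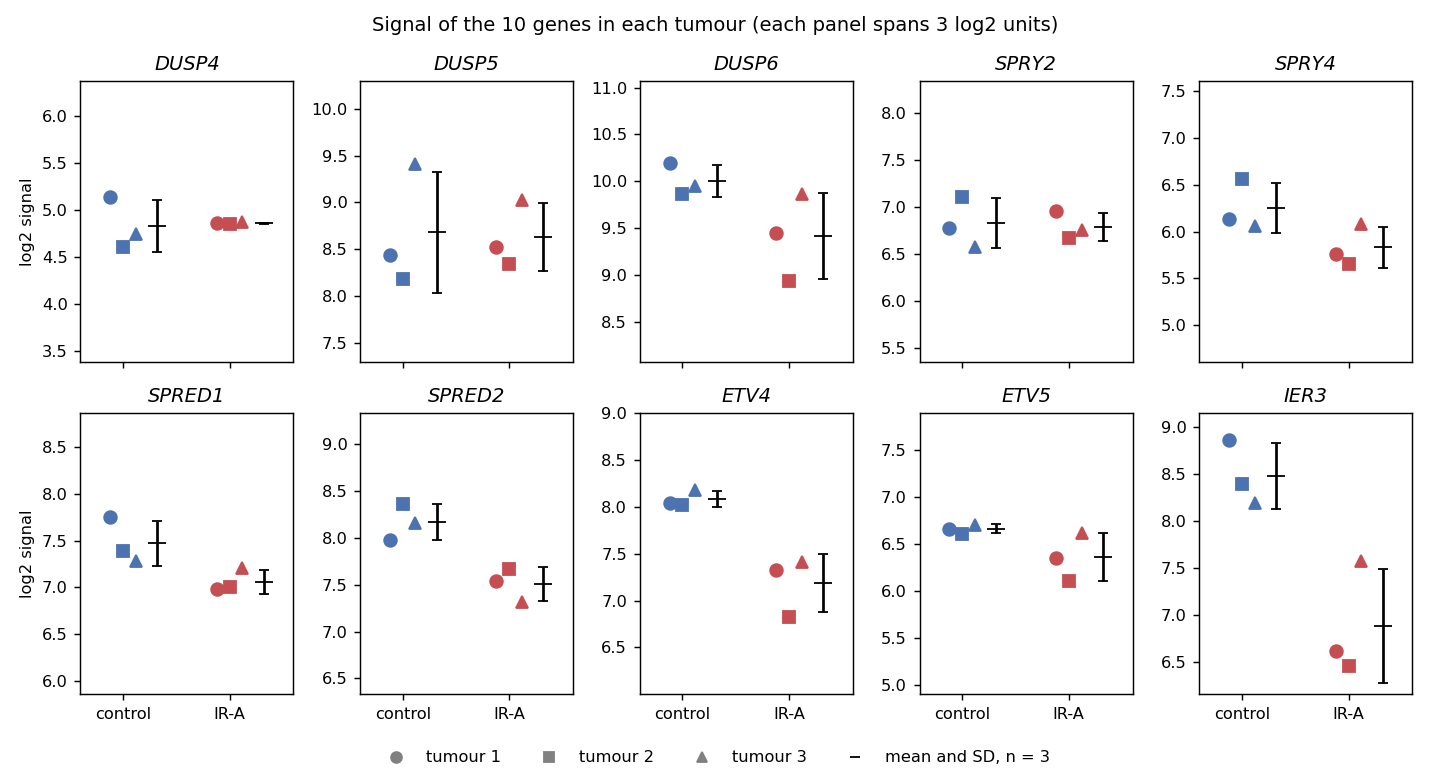
The log2 signal of each of the 10 genes is plotted for 3 control and 3 IR-A tumours, with a point per tumour, a symbol per tumour number and the mean and SD of each group beside the points; every panel spans the same range. IER3, ETV4, SPRED2 and SPRED1 have no overlap between the groups, and the IR-A 3 triangle is the highest of the IR-A points in 8 of 10 panels.

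Promoters are shown for DUSP6, SPRED1 and SPRED2, the 3 genes with both an unadjusted limma p under 0.05 and a promoter entry. Of the 10 genes, 5 had an entry in the RefSeq promoter table of GRCh38.p14 (DUSP6, SPRY2, SPRY4, SPRED1 and SPRED2). Each sequence is the 250 bases before the annotated start, read 5′ to 3′ on the strand of the gene. Capitals mark the core that ETS factors bind, GGAA, or its reverse complement TTCC. DUSP6 lies on the minus strand (chr12:89352502-89352751), SPRED1 on the plus strand (chr15:38252586-38252835) and SPRED2 on the minus strand (chr2:65432600-65432849, the more upstream of its annotated starts).
DUSP6: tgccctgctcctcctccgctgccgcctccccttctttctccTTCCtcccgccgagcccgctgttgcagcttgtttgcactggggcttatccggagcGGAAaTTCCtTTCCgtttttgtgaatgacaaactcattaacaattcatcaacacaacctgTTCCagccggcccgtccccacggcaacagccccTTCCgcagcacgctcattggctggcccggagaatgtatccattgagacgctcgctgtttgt
SPRED1: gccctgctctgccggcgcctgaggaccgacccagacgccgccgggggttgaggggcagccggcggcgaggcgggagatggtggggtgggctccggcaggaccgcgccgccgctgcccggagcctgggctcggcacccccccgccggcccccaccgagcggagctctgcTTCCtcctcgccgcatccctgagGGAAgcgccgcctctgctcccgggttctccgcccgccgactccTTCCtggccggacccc
SPRED2: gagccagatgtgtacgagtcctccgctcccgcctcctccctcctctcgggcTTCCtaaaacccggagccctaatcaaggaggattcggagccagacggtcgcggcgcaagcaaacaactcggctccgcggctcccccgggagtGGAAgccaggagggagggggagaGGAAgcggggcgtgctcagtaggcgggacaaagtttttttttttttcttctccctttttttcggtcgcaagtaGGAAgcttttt

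The core occurs 6 times in the DUSP6 window, 4 times in that of SPRED2 and 3 times in that of SPRED1, counting both strands. At least as many occurrences stood in 9.14%, 34.3% and 55.1% of all 35116 promoter windows of this length, of which 92.7% hold the core at least 1 time. The other annotated SPRED2 start has 5 occurrences (at least as many in 18.6% of windows). Those of DUSP6 lie 61 to 209 bases before the start. SPRY4, whose signal was also lower, has 2 occurrences, and the SPRY2 windows, of a gene with nearly equal signal in the groups, have 3, 4 and 4. None of the windows of the 5 genes holds the longer ETS letters CCGGAAGT (3.42% of all windows, on either strand) or the AP-1 letters TGANTCA (6.57%). The letters TGACG, part of the cyclic AMP response element, occurs 1 time each in SPRY4 and in the first SPRY2 window (21.2% of all windows). These are matches of letters, and binding was not measured.

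ETV4, which drives genes of growth and invasion downstream of ERK, read 8.04, 8.02 and 8.18 in control tumours and 7.33, 6.83 and 7.41 in IR-A tumours. The control values were close together (SD 0.084, n = 3), and every IR-A tumour lay at least 0.62 below the lowest control. The mean log2 difference was -0.89 (SE 0.17, 95% interval -1.29 to -0.49, limma unadjusted p = 0.00129, adjusted p = 0.147). ETV5, its close relative, read 6.66, 6.61 and 6.70 in control and 6.35, 6.10 and 6.62 in IR-A tumours. Its groups overlapped by 0.0078, because IR-A tumour 3 read slightly above control tumour 2. The ETV5 difference was -0.30 (SE 0.14, 95% interval -0.64 to 0.038, limma unadjusted p = 0.0731, adjusted p = 0.414).

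IER3 had the largest difference of the 10 genes. It read 8.86, 8.39 and 8.19 in control tumours and 6.61, 6.45 and 7.57 in IR-A tumours. The groups were separated by 0.62, and IR-A tumour 3 stood well above the other IR-A tumours. The log2 difference was -1.60 (SE 0.32, 95% interval -2.38 to -0.83, limma unadjusted p = 0.00199, adjusted p = 0.147), which is a control level 3.04-fold that of the IR-A tumours. The spread of the IR-A values (SD 0.61, n = 3) was the largest that any of the 10 genes had in that group.

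Among the phosphatases, DUSP6 is the cytoplasmic enzyme specific for ERK. It read 10.2, 9.87 and 9.95 in control tumours and 9.45, 8.94 and 9.87 in IR-A tumours. IR-A tumour 3 reached the lowest control, with an overlap of 0.0014, while IR-A tumours 1 and 2 lay below all controls. The difference was -0.58 (SE 0.24, 95% interval -1.15 to -0.018, limma unadjusted p = 0.0447, adjusted p = 0.341). DUSP5, a nuclear phosphatase specific for ERK, read 8.44, 8.18 and 9.41 in control and 8.52, 8.34 and 9.03 in IR-A tumours. Tumour 3 was the highest in each group, and the control SD of 0.65 was far larger than the difference of -0.051 (95% interval -0.87 to 0.77, adjusted p = 0.971 in limma). DUSP4, a nuclear phosphatase that also acts on other MAP kinases, read 5.14, 4.61 and 4.74 in control and 4.86, 4.85 and 4.87 in IR-A tumours. All its IR-A values lay inside the range of the controls, and the difference was 0.030 (95% interval -0.32 to 0.39, adjusted p = 0.956 in limma). It was the dimmest of the 10, at the 51.8th percentile of the mean signals of all probe sets.

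The Sprouty proteins block the path from receptors to RAS and RAF. SPRY4 read 6.13, 6.56 and 6.06 in control and 5.76, 5.65 and 6.08 in IR-A tumours. Its groups overlapped by 0.018, again through IR-A tumour 3. The difference was -0.42 (SE 0.18, 95% interval -0.84 to 0.0006, limma unadjusted p = 0.0502, adjusted p = 0.355). SPRY2 read 6.78, 7.11 and 6.58 in control and 6.96, 6.67 and 6.76 in IR-A tumours. The IR-A values fell inside the control range, with a difference of -0.031 (95% interval -0.41 to 0.35, adjusted p = 0.958 in limma).

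The SPRED proteins bind neurofibromin, the RAS-inactivating protein, and bring it to the membrane. SPRED2 read 7.98, 8.36 and 8.16 in control and 7.54, 7.67 and 7.31 in IR-A tumours. The groups were separated by 0.31, and here IR-A tumour 3 was the lowest of all 6 tumours. The difference was -0.66 (SE 0.14, 95% interval -1.0 to -0.32, limma unadjusted p = 0.00278, adjusted p = 0.155). SPRED1 read 7.75, 7.39 and 7.28 in control and 6.98, 7.0 and 7.21 in IR-A tumours. Its groups were separated by only 0.075, and the difference was -0.41 (SE 0.15, 95% interval -0.76 to -0.061, limma unadjusted p = 0.0277, adjusted p = 0.293).

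Within the IR-A group, most of the 10 genes had tumour 2 lowest and tumour 3 highest. After each gene was centred on its own mean, the mean over the 10 genes was 0.30, 0.21 and 0.23 in control tumours 1 to 3. It was -0.26, -0.45 and -0.027 in IR-A tumours 1 to 3. IR-A tumour 2 was the lowest of the IR-A tumours for 8 of the 10 genes, and IR-A tumour 3 the highest for 8 of the 10. SPRED2 had the opposite order, with tumour 3 the lowest and tumour 2 the highest of the group. INSR itself was highest in IR-A tumour 2 (11.31) and lowest in IR-A tumour 1 (10.65).

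The difference between a pair of relatives was also taken within each tumour and compared between groups, for 6 pairs. The log2 signal of one probe set minus that of the other has no meaning as a level, and only its change between groups is read. For ETV4 minus ETV5 it was 1.38, 1.41 and 1.47 in control tumours and 0.98, 0.73 and 0.79 in IR-A tumours. The groups did not overlap, and ETV4 was lower relative to ETV5 by a mean of -0.59 (two-sided exact permutation p = 0.1, the smallest possible, and 0.2 after Benjamini-Hochberg adjustment over the 6 pairs). SPRY4 relative to SPRY2 read -0.65, -0.55 and -0.53 in control and -1.19, -1.02 and -0.68 in IR-A tumours, a difference of -0.39 (exact permutation p = 0.1, adjusted 0.2). DUSP4 relative to DUSP6 differed by 0.61 (exact permutation p = 0.1, adjusted 0.2), also without overlap. SPRED2 relative to SPRED1 (-0.25, exact permutation p = 0.5), DUSP4 relative to DUSP5 (0.081, exact permutation p = 0.9) and DUSP5 relative to DUSP6 (0.53, exact permutation p = 0.4) overlapped between groups. No pair could pass 0.05 in this design.

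**Figure D2:**
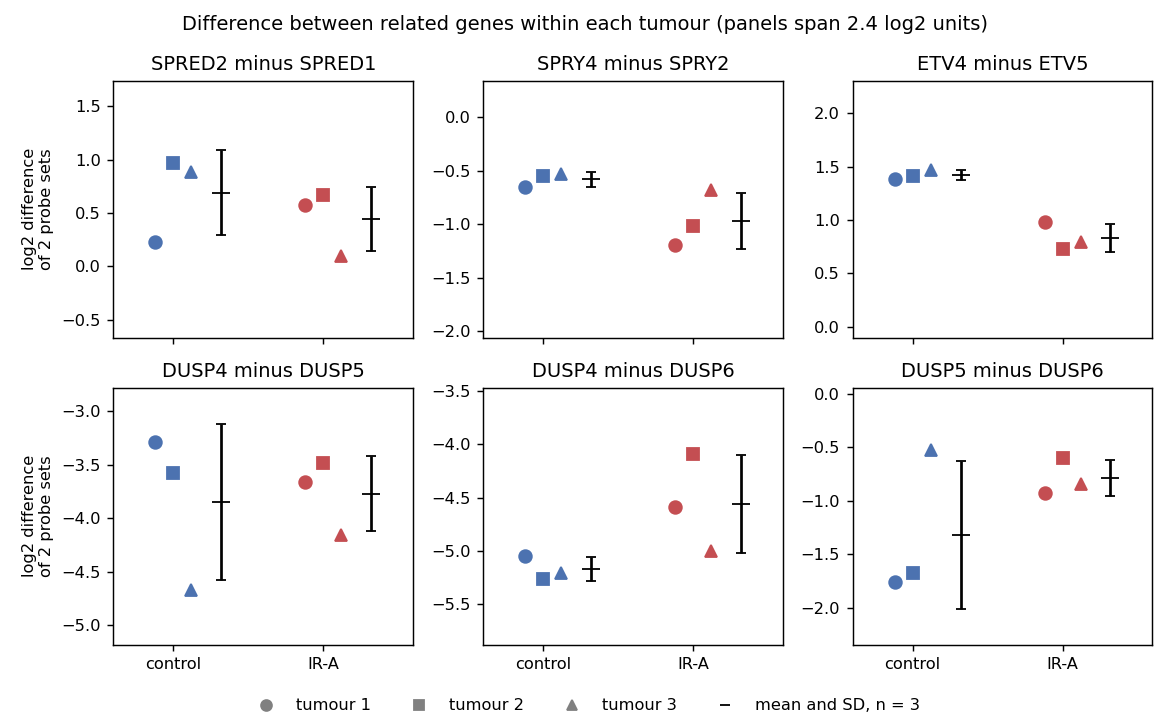
The log2 difference between the probe sets of related genes is plotted in each of 3 control and 3 IR-A tumours for 6 pairs, with the mean and SD of each group beside the points and the same range in every panel. The groups are apart for ETV4 minus ETV5, SPRY4 minus SPRY2 and DUSP4 minus DUSP6, and overlap for the other pairs.

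The differences of IER3, ETV4 and SPRED2 stayed at an unadjusted limma p under 0.05 with any 1 tumour left out. Their log2 differences then ran from -1.95 to -1.39, from -1.0 to -0.71 and from -0.75 to -0.56. The lowest difference of IER3, ETV4 and DUSP6 came without IR-A tumour 3, and that of DUSP6 ran from -0.81 to -0.34. Of the 10 genes, 4 were lower at an unadjusted p under 0.05 without control tumour 2, against 10.7% of all probe sets, and 0 passed the adjusted threshold, against 0.449% of all probe sets lower and 0.797% higher. The number lower was 3 without control tumour 1 (4.61% of all probe sets), IR-A tumour 1 (4.64%) or IR-A tumour 2 (5.20%). With control tumour 3 left out it was 5 (6.18%), and SPRY4 took the place of DUSP6. It was 7 without IR-A tumour 3 (6.02%). DUSP6 passed an unadjusted p of 0.05 in 1 of these 6 fits, the one without IR-A tumour 3. SPRED1 missed it without control tumour 1, IR-A tumour 1 or IR-A tumour 2. The signs of DUSP4, DUSP5 and SPRY2 depended on which tumour was left out.

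**Figure D3:**
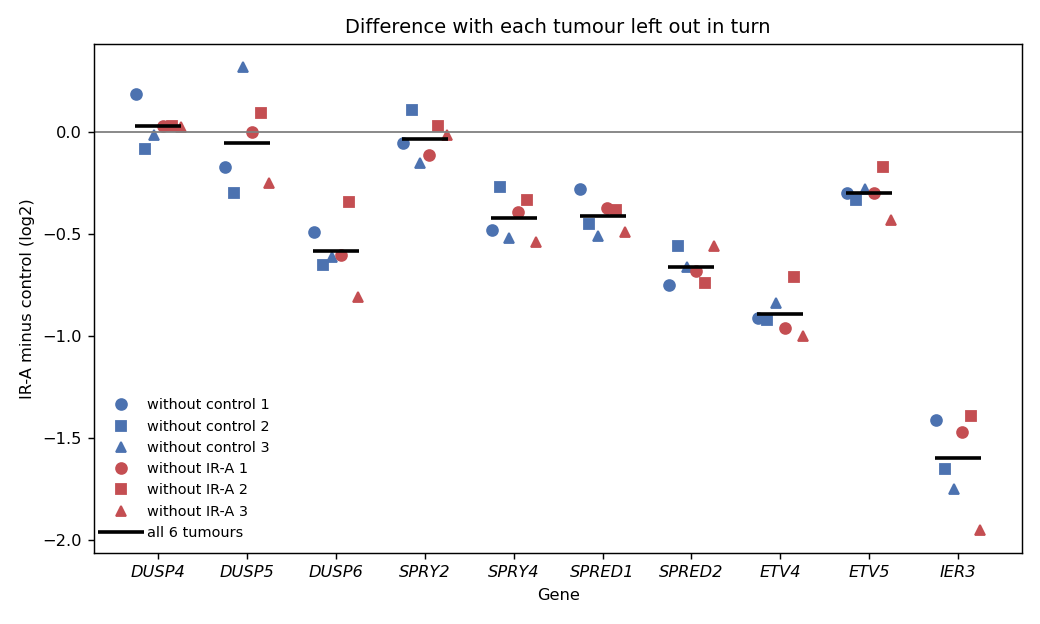
The log2 difference, IR-A minus control, of each of the 10 genes is plotted with all 6 tumours (bar) and with each tumour left out (points, colour for the group and symbol for the number of the tumour left out). DUSP4, DUSP5 and SPRY2 have points on both sides of 0, and the points of the other 7 genes are all below 0.

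Further genes around ERK signalling were read as lists by role, beginning with other brakes. Of 7 further MAP kinase phosphatases, 0 were lower or higher at an unadjusted p under 0.05, against 7.03% of all probe sets lower and 7.10% higher, and their median log2 difference was 0.26. DUSP10, which acts on JNK and p38, differed by 0.47 (SE 0.21) and DUSP16, a JNK phosphatase, by 0.26 (SE 0.12), with adjusted p values of 0.386 and 0.406 in limma. With control tumour 2 left out, DUSP10 alone was higher at an unadjusted p under 0.05 (difference 0.67, adjusted p = 0.114), against 10.3% of all probe sets. Of 10 other measured feedback inhibitors, 1 was lower and 1 higher at an unadjusted p under 0.05, with a median of 0.0034. The lower gene was SPRY1, a further Sprouty, which read 7.02, 6.85 and 6.54 in control and 6.39, 6.21 and 6.53 in IR-A tumours. Its difference was -0.42 (SE 0.15, adjusted p = 0.295), or -0.40 without control tumour 2, where it missed the unadjusted threshold (adjusted p = 0.278 in limma). The higher gene was PEBP1, the RAF kinase inhibitor protein, at 0.56 (SE 0.16, adjusted p = 0.216), or 0.73 without control tumour 2, where it passed limma's test (adjusted p = 0.0471). Without that tumour, 0 of the 10 inhibitors were lower and 2 higher at an unadjusted p under 0.05, against 10.7% and 10.3% of all probe sets.

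The list of ETS factors other than ETV4 and ETV5 had a median of 0.11. Of 15, 10 lay above 0, 6 were higher and 0 lower at an unadjusted p under 0.05 (7.10% and 7.03% of all probe sets), and 0 passed the adjusted threshold in limma. Without control tumour 2, 3 of the 15 were higher at an unadjusted p under 0.05, against 10.3% of all probe sets. GABPA, the DNA-binding subunit of GA-binding protein, differed by 0.55 (SE 0.13, adjusted p = 0.175) and ETV6, an ETS repressor, by 1.04 (SE 0.33, adjusted p = 0.255). ETV1, the remaining PEA3 member, was chosen here after its values were seen and differed by -0.13 (SE 0.23, adjusted p = 0.849 in limma).

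Other genes that ERK is known to induce were mixed. Of 20 measured, 14 lay below 0 with a median of -0.094, 3 were lower and 2 higher at an unadjusted p under 0.05 (7.03% and 7.10% of all probe sets), and 0 passed the adjusted threshold in limma. Without control tumour 2, 7 were lower at an unadjusted p under 0.05, against 10.7% of all probe sets. SRF, a transcription factor that binds next to ETS partners at immediate early genes, read 7.96, 8.01 and 7.69 in control and 7.33, 7.23 and 7.38 in IR-A tumours, a difference of -0.57 (SE 0.12, adjusted p = 0.147). The cytokine LIF differed by 0.78 (SE 0.22, adjusted p = 0.218). The immediate early factor EGR1 and MYC, chosen after their values were seen, differed by -0.86 (SE 0.26) and -1.24 (SE 0.43), with adjusted p values of 0.238 and 0.282 in limma. JUN, a subunit of AP-1 chosen in the same way, differed in the other direction by 0.45 (SE 0.13, adjusted p = 0.223), without overlap between the groups. MYC varied widely among the controls, with 8.08, 7.14 and 6.31 against 6.02, 5.6 and 6.19 in IR-A tumours. It was not among the 7 genes lower without control tumour 2, while EGR1 was.

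In the ERK cascade, 16 genes were measured, among them adaptors upstream of ERK, the ERK gene MAPK3 and kinases that ERK activates. Their median was 0.20. At an unadjusted p under 0.05, 1 was lower (6.25%) and 2 higher (12.5%), against 7.03% and 7.10% of all probe sets. Without control tumour 2 these counts were 2 and 5, against 10.7% and 10.3%. SHC1, the adaptor that links the insulin receptor to RAS, read 9.72, 9.38 and 9.75 in control and 8.87, 8.94 and 9.19 in IR-A tumours, a difference of -0.61 (SE 0.14, adjusted p = 0.168). RPS6KA3, a kinase that ERK activates, differed by 0.59 (SE 0.18, adjusted p = 0.240). Of 15 receptor genes including INSR, 9 lay above 0, 5 were higher and 0 lower at an unadjusted p under 0.05, against 7.10% and 7.03% of all probe sets, with 6 higher without control tumour 2 (10.3%). KLB, the partner of FGFR4 for FGF19, differed by 0.61 (SE 0.12, adjusted p = 0.147). EGFR (0.77, SE 0.25), ERBB2 (0.62, SE 0.22) and ERBB3 (0.41, SE 0.12), chosen after their values were seen, were the remaining genes of that count, with adjusted p values of 0.253, 0.288 and 0.224 in limma.

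**Figure D4:**
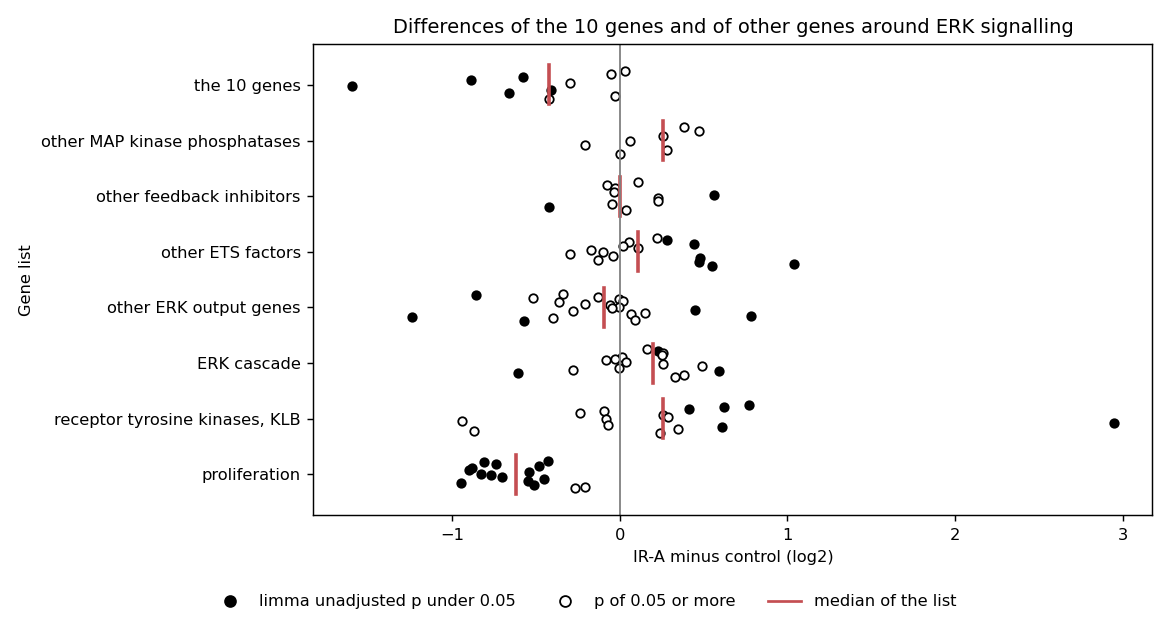
Each point is the log2 difference, IR-A minus control, of a gene in a list, filled where limma's unadjusted p was under 0.05, with the median of the list as a bar. The medians of the 10 genes (-0.42) and of the proliferation genes (-0.62) are the most negative, and the right-most point is INSR at 2.95. The row of other feedback inhibitors also holds general RAS or RAF inhibitors such as NF1 and PEBP1.

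Genes of proliferation, which ERK signalling promotes, had lower signal in the same tumours as the 10 genes. All 16 lay below 0 (56.0% of all probe sets) with a median of -0.62, and 14 were lower at an unadjusted p under 0.05 (7.03%). Without control tumour 2, 12 were lower at that p (10.7%), and 0 passed the adjusted threshold in limma in either fit. Their mean level was 9.10, 9.04 and 8.92 in control tumours and 8.32, 8.22 and 8.65 in IR-A tumours, so that IR-A tumour 2 was again the lowest and IR-A tumour 3 the highest of its group. The mitotic cyclin CCNB2 differed by -0.90 (SE 0.15) and the mitotic kinase PLK1 by -0.95 (SE 0.17), both at an adjusted p of 0.140. Their part in the differences of the 10 genes was not tested.

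Markers of fibroblasts, endothelium, macrophages and leukocytes were set beside the 10 genes as lists. The mean level of 9 fibroblast markers ran from 4.36 to 4.71 in control and from 4.73 to 4.83 in IR-A tumours, and that of 10 macrophage and leukocyte markers from 5.04 to 5.10 and from 5.29 to 5.36. That of 8 endothelial markers ran from 3.79 to 3.92 and from 3.86 to 3.89. Of the fibroblast markers, 6 lay above 0 and 3 below, with a median log2 difference of 0.12. Of the macrophage and leukocyte markers 5 lay above 0 and 5 below (median 0.0078), and of the endothelial markers 3 and 5 (median -0.041). Over all probe sets 56.0% lay below 0. Markers below 0 included the fibroblast markers PDGFRA (-0.87) and FAP (-0.079) and the leukocyte markers CD14 (-0.24) and PTPRC (-0.073). At an unadjusted p under 0.05, 3 fibroblast, 2 macrophage and leukocyte and 1 endothelial marker were higher and 0 lower, against 7.10% and 7.03% of all probe sets. Without control tumour 2 the higher ones numbered 4, 2 and 0 (10.3% of all probe sets). Chosen after their values were seen, the matrix proteoglycan LUM differed by 1.26 (SE 0.15) and the collagen gene COL1A2 by 0.83 (SE 0.20). The myeloid signalling adaptor TYROBP and CD68, a listed macrophage marker, were chosen in the same way. They differed by 1.78 (SE 0.29) and 0.62 (SE 0.21). Limma adjusted p values were 0.106, 0.173, 0.131 and 0.271 in the order named. Without control tumour 2, LUM (1.35, adjusted p = 0.0339) and TYROBP (2.05, adjusted p = 0.0363) passed limma's test. LUM was dim, at the 29.5th percentile of mean signals, and read 2.68 to 3.16 in control and 4.18 to 4.33 in IR-A tumours. Among the macrophage and leukocyte markers, LYZ and CD68 were bright, at the 99.8th and 98.9th percentile. PTPRC, CD163 and CD14 were dim, at the 10.4th, 9.35th and 18.6th. Which cells gave these signals was not tested. The level of 10 hepatocyte and hepatoma markers ran from 11.89 to 12.12 in control and from 12.19 to 12.28 in IR-A tumours. Of these 10, 5 were higher and 0 lower at an unadjusted p under 0.05 in limma, against 7.10% and 7.03% of all probe sets. Without control tumour 2, 5 were again higher (10.3%). The fibroblast, the macrophage and leukocyte and the hepatocyte and hepatoma levels were each higher in every IR-A tumour than in any control. The probe sets are of human genes, how far they read mouse RNA was not tested, and the part of these markers in the differences of the 10 genes was not tested. In bulk tumours, fewer cells of a type and less RNA per cell cannot be told apart.

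The genes whose pattern over the 6 tumours was most like that of the 10 genes were found by the root mean square difference of centred log2 values, where 0 is an identical pattern. The search ran over all named genes outside the 10, with only 6 values each, so a small distance is not evidence of shared control. Closest to the mean of the 10 were RPS29, a ribosomal protein gene (0.044), NCAPH, a condensin subunit (0.047), and GABPB1, the partner subunit of GABPA (0.054). GABPB1 differed by -0.49 between the groups, while GABPA differed by 0.55. ETV4 was most like GRK6, a kinase that acts on G protein-coupled receptors (0.064), the ribosomal protein gene RPL17 (0.075) and PLK1 (0.096). IER3 was nearest to the histone genes H2AC4 (0.242) and H2BC3 (0.264) and the small nucleolar RNA SNORD79 (0.255), at a much larger distance. SPRED2 was nearest to the small nucleolar RNA host gene SNHG8 (0.078), MIX23 (0.102) and RPL30 (0.106). SPRED1 was nearest to CNIH1 (0.035), RRP1B (0.039) and GEMIN4 (0.046), and DUSP6 to RAET1G (0.087), MARS1 (0.088) and CCDC86 (0.089). Histone and ribosomal protein genes have near-identical copies, so the source of their signal is uncertain. Within the 10 genes, ETV5 was the nearest to DUSP6 (0.208) and to SPRED1 (0.182), DUSP6 to ETV4 (0.225), SPRY4 to SPRED2 (0.279) and ETV4 to IER3 (0.498).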

How the data were processed

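Per the labels' protocols, Trizol-extracted total RNA (500 ng) was amplified and labelled with biotin by a whole-transcript assay. The authors deposited a table of log2 signals with a value for each probe set in each tumour, a scale read here from its range. The submitters' processing notes list RMA and Partek and give no version. Array model, probe set definition and build: not given in the sources used here. RMA can compress differences of dim probe sets. GEO's probe annotation named 23934 probe sets with 1 symbol each and left 792 without. Of 3 symbols with several probe sets the brightest was kept. All 10 gene IDs carried the same symbol in RefSeq.

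Groups were compared by limma 3.58.1 (R 4.3.3; lmFit, then eBayes, no filter) and p-values adjusted by Benjamini-Hochberg across the 24726 probe sets. SE and 95% intervals are limma's. Relatives were compared with a two-sided exact permutation test. The genes and lists were chosen with earlier results of these data known, so a list's count is no independent evidence. From each other pathway list, genes past the threshold (up to 4) or else the 2 of smallest p were named, and for each pattern the 3 most alike. Genes outside this rule are stated as such. The fit was tested on simulated data before use. Alternatives were quantile normalization, median centring, filters that drop the dimmest 25% or 50%, a trend with intensity, array weights, a replicate block and removal of single tumours. Plots used matplotlib 3.10.9 (Python 3.11.15).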

Additional observations from a re-analysis of the deposited data

How the results depend on the processing

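Over 13 alternatives, 0 of the 10 genes were called in limma at an adjusted p of 0.05 (lowest adjusted p per setting 0.0812 to 0.477), and their median difference ran from -0.51 to -0.34. DUSP6, SPRY4, SPRED1, SPRED2, ETV4, ETV5 and IER3 kept their negative sign in all 13. The count at an unadjusted p under 0.05, whose alternatives were added after the data were seen, ran from 3 to 7 over left-out tumours. Signs turned for DUSP4 with array weights (-0.035) and without a tumour (-0.081 to 0.19), for SPRY2 with array weights (0.023) and without a tumour (-0.15 to 0.11), and for DUSP5 without a tumour (-0.30 to 0.32). That of DUSP4 minus DUSP5 turned without control tumour 3 (-0.33) or IR-A tumour 2 (-0.062), over a range of -0.33 to 0.36. The cause of these turns was not tested.

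Without the dimmest 25% of probe sets, 14 probe sets were called, INSR (2.95) among them. Without the dimmest 50% there were 20, again with INSR (2.95), and with array weights 11, with INSR at 2.87. INSR was the 1 other pathway gene called in each of these. Leaving out a tumour gave 0 to 308 probe sets, 0 to 2 other pathway genes and INSR differences of 2.74 to 3.17. The 308 came without control tumour 2, where INSR and PEBP1 were called.

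The replicate numbers were shared by the groups, and the labels do not say whether they pair the tumours. Correlations of same-numbered deviations were -0.29, -0.36 and 0.020, and those of different numbers ran from -0.32 to 0.50. With 3 tumours per group these values cannot decide whether the tumours were paired. With the replicate block, 0 probe sets passed and 4 of the 10 genes were lower at an unadjusted p under 0.05, against 5.26% of all probe sets, with IER3 at -1.60 (adjusted p = 0.342 in limma). The table gives no background signal.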
